A study of Mus musculus with 7 samples.

Results

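The 10 genes described here encode enzymes and chaperones that modify and fold procollagen chains in the endoplasmic reticulum (ER). They were chosen by name from the 55487 gene identifiers measured in aortas of mice carrying a glycine substitution in type III collagen. The group holds the prolyl 4-hydroxylase subunits *P4ha1*, *P4ha2*, *P4ha3* and *P4hb*, the lysyl hydroxylases *Plod1*, *Plod2* and *Plod3*, the prolyl 3-hydroxylase *P3h1* with its partner *Crtap*, and *Serpinh1*, which encodes the chaperone HSP47. RNA-seq libraries came from thoracic aortas of 7-week-old male C57BL/6 mice, 3 Col3a1+/G182R and 4 Col3a1+/+, with 1 library per mouse. Col3a1+/G182R mice carry 1 knock-in allele and 1 wild-type allele in every cell type, so no promoter or recombinase restricts the allele to a tissue. The line came from embryonic stem cell clones, and its selection cassette was removed by crossing to a FLPe deleter line. Both genotypes were otherwise untreated. The question was whether the collagen-folding machinery differs in aortas that make a mutant type III procollagen.

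Procollagen chains are hydroxylated while they are still unfolded. Hydroxyproline made by the prolyl 4-hydroxylases stabilises the triple helix against heat, and hydroxylysine serves for glycosylation and for the cross-links formed later outside the cell. HSP47 binds the folded triple helix and leaves it after export from the ER, while the complex of P3H1, CRTAP and cyclophilin B modifies single prolines and assists folding. Glycine substitutions in fibrillar collagens are known to slow propagation of the helix, which leaves chains exposed to these enzymes for longer.

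The libraries held 18820015 to 23953746 expected counts in Col3a1+/G182R and 13693861 to 21634680 in Col3a1+/+, and 15688 genes passed the filter on low counts. By edgeR's quasi-likelihood test, 6 of these genes passed an adjusted p of 0.05, which is 0.0382% of the genes tested, while DESeq2 called 723 in either direction, or 4.61%. *Col3a1* itself had 4107, 4216 and 5208 CPM (counts scaled to library size with TMM factors) in Col3a1+/G182R, against 5483, 3965, 3578 and 2831 CPM in Col3a1+/+ (log2 fold change 0.19 ± 0.217 SE, edgeR adjusted p = 0.633). This total does not show which allele was read, so it is no check of the genotype labels. All 8 smooth muscle markers exceeded 1 TPM in at least 1 library, and their summed level was 23921 to 25652 TPM in Col3a1+/G182R and 17547 to 28610 TPM in Col3a1+/+. The summed adventitial fibroblast markers were at 1382 to 1967 TPM in Col3a1+/G182R and 647 to 1716 TPM in Col3a1+/+, and all 8 were higher in Col3a1+/G182R (median log2 fold change 0.55, 0 of 8 called by edgeR and 1 by DESeq2). The 8 macrophage markers summed to 176 to 495 TPM in Col3a1+/G182R and 130 to 209 TPM in Col3a1+/+ (median log2 fold change 0.79, 8 of 8 higher, 0 called by edgeR and 1 by DESeq2). Red blood cell markers, 5 of 5 higher, summed to 697 to 1900 TPM in Col3a1+/G182R and 410 to 1058 TPM in Col3a1+/+. Adipocyte markers summed to 3121 to 5873 TPM in Col3a1+/G182R and 2559 to 5366 TPM in Col3a1+/+. Of these 8 markers, 7 were higher (median log2 fold change 0.41, 0 called by edgeR or DESeq2). Blood endothelium markers, 5 of 8 higher, summed to 278 to 392 TPM in Col3a1+/G182R and 165 to 482 TPM in Col3a1+/+. The summed markers of cardiac muscle, of skeletal muscle and of cartilage and bone were lower in each Col3a1+/G182R library than in any Col3a1+/+ library. Of the single genes tested, 9.32% were lower without overlap in TPM. Cardiac muscle markers summed to 42.4 to 44.6 TPM in Col3a1+/G182R and 51.2 to 159 TPM in Col3a1+/+ (3 of 6 called lower by DESeq2, 0 by edgeR). Over the genes tested DESeq2 called 2.61% lower and 2% higher. Skeletal muscle markers summed to 8.51 to 13.8 TPM in Col3a1+/G182R and 16.2 to 24.4 TPM in Col3a1+/+. Of these 8 markers, 4 stayed under 1 TPM in every library (*Myh4* at 0). Cartilage and bone markers summed to 20.8 to 28.8 TPM in Col3a1+/G182R and 30.4 to 35.8 TPM in Col3a1+/+. Of these 8 markers, 6 stayed under 1 TPM in every library (*Matn1* at 0), so both sums rest on few genes. In whole tissue, fewer cells of a type and less RNA per cell cannot be told apart, and the part of these cell types in the values below was not tested.

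HSP47 and the β-subunit encoded by *P4hb* carry an ER retrieval signal at the very end of the chain, which the KDEL receptor recognises, and P3H1 does so in some isoforms. The last 33 coding bases (stop codon included) are shown for these genes, since the signal is what keeps a soluble chaperone at the site of collagen folding. Capitals mark the last 4 codons, which read Arg-Asp-Glu-Leu in *Serpinh1* and Lys-Asp-Glu-Leu in *P4hb* and in 3 of the 4 coding *P3h1* transcripts.
Serpinh1: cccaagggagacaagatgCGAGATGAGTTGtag
P4hb: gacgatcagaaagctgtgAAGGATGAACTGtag
P3h1: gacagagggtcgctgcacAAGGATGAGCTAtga
The *P3h1* transcript with the longest coding sequence in GENCODE M21 ends Trp-Ala-Trp-Leu and lacks the signal. *Crtap*, the 3 α-subunit genes and the 3 lysyl hydroxylase genes have no such ending in their full coding transcripts, and the 3 lysyl hydroxylases share an ending of Phe-Val-Asp-Pro (*Plod1*, *Plod3*) or Phe-Ile-Asp-Pro (*Plod2*) in their longest transcripts.

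Levels per length, in TPM (transcript abundance per length, scaled within each library), spread over more than 3 orders of magnitude among the 10 genes. *Serpinh1* had the highest median over the 7 libraries at 757 TPM, with a range of 644 to 872 TPM. *P4hb*, whose protein disulfide isomerase is the β-subunit of prolyl 4-hydroxylase and also works on other ER proteins, followed at 513 TPM (408 to 776 TPM). *Crtap* was next at 266 TPM (195 to 320 TPM). The hydroxylases themselves lay well below these, from *Plod2* at a median of 62.3 TPM to *P3h1* at 35.8 TPM, and their ranges overlapped those of their neighbours in the order. *P4ha3* was at 0.17 to 0.82 TPM. Neighbours in the order that did not overlap in any library were *P4hb* and *Crtap*, *Crtap* and *Plod2*, and *P3h1* and *P4ha3*. CRTAP and P3H1 form a complex, yet *Crtap* stood above *P3h1* in each of the 7 libraries, with P3h1/Crtap ratios of TPM of 0.141, 0.136 and 0.135 in Col3a1+/G182R and 0.139, 0.133, 0.139 and 0.119 in Col3a1+/+. Most of this *Crtap* level was assigned to a short transcript with a retained intron, described further on, and the coding transcript alone, at 55.6 to 98.8 TPM, overlapped *Plod2* (39.0 to 70.3 TPM).

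**Figure D1:**
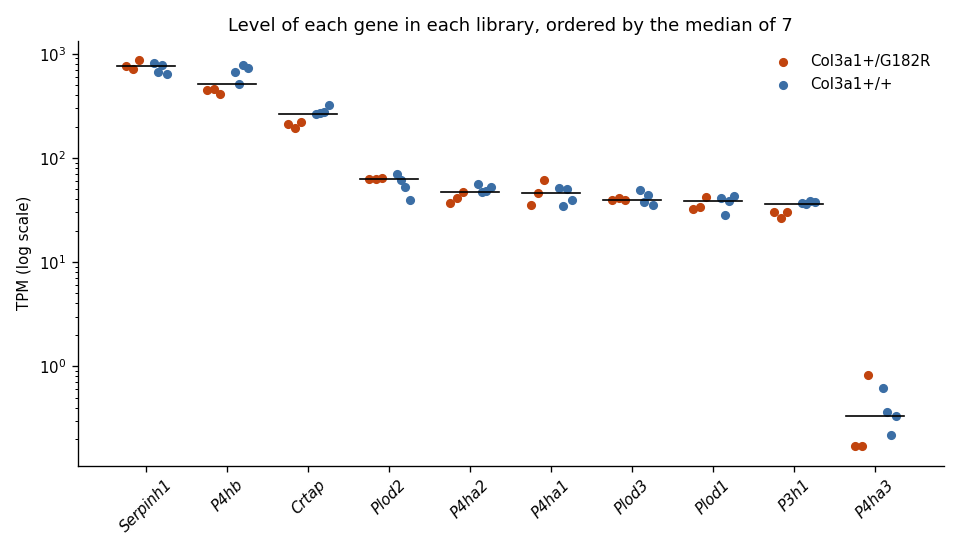
TPM (log axis) of the 10 genes in each library, ordered by the median of the 7 libraries, which a black line marks. Points on the left of each gene are the 3 Col3a1+/G182R libraries and points on the right the 4 Col3a1+/+ libraries, and *P4ha3* lies below 1 TPM in each library while *Serpinh1* lies between 644 and 872 TPM.

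Of the 10 genes, 9 passed the low-count filter and 0 of 9 were called by edgeR, while 1 of 9 (*P4ha2*) had an unadjusted p under 0.05, against 20.4% of the genes tested. DESeq2 called 1 of 9, also *P4ha2*, against 2.61% of the genes tested that it called lower. Their median log2 fold change was -0.13, beside 0.01 over the genes tested, with 3 genes higher and 6 lower. The tenth, *P4ha3*, had 6, 5 and 21 counts in Col3a1+/G182R and 17, 9, 3 and 6 counts in Col3a1+/+ and did not pass the filter with all 7 libraries. It encodes the remaining α-subunit, and its groups overlapped.

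**Figure D2:**
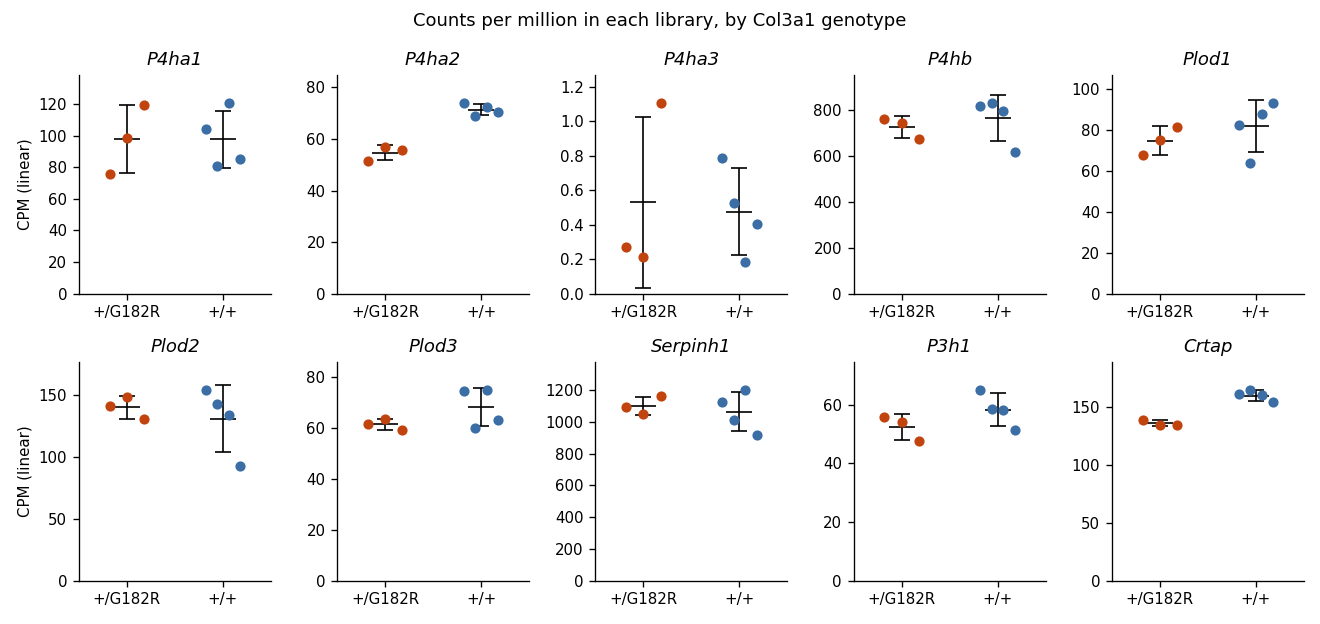
CPM (linear axes from 0) of each gene in the 3 Col3a1+/G182R libraries (left) and the 4 Col3a1+/+ libraries (right), with the mean and SD in black. The groups do not overlap for *P4ha2*, with 51.4 to 56.9 CPM against 68.9 to 73.8 CPM, or for *Crtap*, with 134 to 139 CPM against 154 to 165 CPM, and they overlap for the other 8 genes.

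The α-subunits carry the catalytic site of prolyl 4-hydroxylase, and *P4ha2* was lower in each Col3a1+/G182R library while *P4ha1* overlapped between genotypes. *P4ha1* (chr10:59323296-59373304, plus strand, GRCm38) had 75.7, 98.8 and 119 CPM in Col3a1+/G182R, against 104, 80.8, 120 and 85.3 CPM in Col3a1+/+. Each group spanned most of the other's range, and the log2 fold change was 0.00 (95% interval -0.42 to 0.42, edgeR adjusted p = 0.994). *P4ha2* (chr11:54100095-54131665, plus strand) had 51.4, 56.9 and 55.9 CPM in Col3a1+/G182R, against 73.8, 68.9, 72.4 and 70.4 CPM in Col3a1+/+. Each Col3a1+/G182R library was below each Col3a1+/+ library, with means of 54.7 ± 2.95 CPM (SD, n = 3) in Col3a1+/G182R and 71.4 ± 2.15 CPM (SD, n = 4) in Col3a1+/+. The log2 fold change was -0.38 ± 0.105 (SE), a fold of 0.767, with an unadjusted p of 0.00482 from edgeR's model over all genes and an adjusted p of 0.158. DESeq2 gave an adjusted p of 0.0126, which lay between 0.0313 and 0.195 when each library was left out in turn and passed the threshold in 3 of 7 such fits. The DESeq2 call was lost without any 1 of the 3 Col3a1+/G182R libraries and without Col3a1+/+ replicate 3. In TPM the genotypes overlapped, with 36.7, 41.2 and 47.6 TPM in Col3a1+/G182R and 55.8, 46.9, 48.3 and 52.1 TPM in Col3a1+/+.

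*P4ha1* and *P4ha2* shared the α-subunit transcripts about evenly. *P4ha2* made up 50.7, 47.2 and 43.2% of the summed α-subunit TPM in Col3a1+/G182R and 51.6, 57.2, 49.0 and 56.8% in Col3a1+/+, and *P4ha3* at most 0.744% in any library. The TPM ratio of *P4ha2* to *P4ha1* was 1.03, 0.897 and 0.769 in Col3a1+/G182R and 1.08, 1.35, 0.965 and 1.33 in Col3a1+/+. These values overlapped (log2 difference -0.39, exact permutation test over 35 splits, two-sided p = 0.114, adjusted p = 0.457 over 8 ratios). The smallest p that this test can give with 3 and 4 libraries is 0.0286, or 0.229 after adjustment if 1 ratio of the 8 reaches it.

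The reference sequence before one annotated start of *P4ha2* is shown because its counts separated the genotypes with the smallest p among the 9 genes tested. The window is chr11:54100674-54100923 on the plus strand, the 250 bases before the start in the RefSeq promoter table for GRCm38.p6, and overlaps no exon of a GENCODE M21 transcript. Capitals mark, in order, GGGCGG on the other strand (the Sp1 box), ACGTG (core of the hypoxia response element), TTCNNGAA (2 facing units of a heat shock element) and GGGCGG.
P4ha2: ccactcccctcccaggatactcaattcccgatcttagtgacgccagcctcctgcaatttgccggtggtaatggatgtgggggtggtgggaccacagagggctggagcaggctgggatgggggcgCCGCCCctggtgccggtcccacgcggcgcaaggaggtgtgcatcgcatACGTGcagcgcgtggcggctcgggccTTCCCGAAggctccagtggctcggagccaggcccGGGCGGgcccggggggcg
Both strands of the 250 bases before the first start listed were searched in the 9 genes that the table holds. These include *P4ha3* but not *Plod2*, which was not searched. ACGTG was found in 5 of 9 (*P4ha1*, *P4ha2*, *P4hb*, *Plod3* and *Serpinh1*), against 16.6% of the 32851 promoters. GGGCGG was in 7 of 9, against 32.7%. TTCNNGAA was in *P4ha2* alone, against 7.17%, while GAANNTTC was in 0 of 9, against 6.69%. The unfolded protein response letters TGACGTGG and TGACGTGA were each in 0 of 9, against 0.563% and 0.35%, and the ER stress element was in 0 of 9, against 0.113%.

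*Serpinh1* (chr7:99345376-99353239, minus strand), the collagen-specific chaperone, had 1094, 1050 and 1161 CPM in Col3a1+/G182R, against 1126, 1015, 1201 and 917 CPM in Col3a1+/+. The Col3a1+/G182R libraries all lay inside the range of the Col3a1+/+ libraries. The log2 fold change was 0.05 ± 0.135 (SE, edgeR adjusted p = 0.853), and the 95% interval of the fold ran from 0.84 to 1.27. With effective transcript lengths as an offset the log2 fold change was 0.06, so the TPM and the counts gave the same picture for this gene, with 780 ± 83.2 TPM (SD, n = 3) in Col3a1+/G182R and 730 ± 84.2 TPM (SD, n = 4) in Col3a1+/+. Without Col3a1+/+ replicate 4, the library with the lowest *Serpinh1* level and the lowest total count, the log2 fold change was -0.03.

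By RT-qPCR the study reported higher Hsp47 expression in Col3a1+/G182R aortas, from a larger number of slightly older mice than those sequenced. The primers of that Hsp47 assay are shown to place it on the gene. They span 159 bases at the end of the coding sequence, present in 4 of the 7 annotated *Serpinh1* transcripts. The forward primer lies at chr7:99346201-99346220 in the coding sequence and the reverse primer at chr7:99346062-99346081 in the 3′ untranslated region.
Forward: accccttcatcttcctggtg
Reverse: cccatgtgtctcaggaacct
The window upstream of *Serpinh1* (chr7:99353240-99353489, minus strand, RefSeq, GRCm38.p6) is printed for comparison with that of *P4ha2*. Capitals mark the ACGTG letters, read here on the other strand, and GGGCGG.
Serpinh1: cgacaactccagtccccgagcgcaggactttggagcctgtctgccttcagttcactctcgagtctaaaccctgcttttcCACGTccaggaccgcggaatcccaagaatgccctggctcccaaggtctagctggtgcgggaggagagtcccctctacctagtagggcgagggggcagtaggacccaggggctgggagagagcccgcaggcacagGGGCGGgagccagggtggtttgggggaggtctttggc

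The lysyl hydroxylases gave no genotype difference beyond the spread between mice. *Plod2* (chr9:92542223-92608428, plus strand), whose product hydroxylates the lysines of the telopeptides that enter cross-links, had 141, 149 and 130 CPM in Col3a1+/G182R, against 154, 143, 134 and 92.4 CPM in Col3a1+/+. Only Col3a1+/+ replicate 4 stood below 130 CPM, and the log2 fold change was 0.10 ± 0.172 (SE, edgeR adjusted p = 0.765), or -0.05 without that library. *Plod1* (chr4:147909753-147936767, minus strand), which acts on lysines of the helix, had 67.6, 75.1 and 81.4 CPM in Col3a1+/G182R, against 82.4, 63.9, 87.6 and 92.8 CPM in Col3a1+/+. Its log2 fold change was -0.13 ± 0.148 (SE, edgeR adjusted p = 0.628). *Plod3* (chr5:136987019-136996648, plus strand), which also glycosylates hydroxylysine, had 61.7, 63.5 and 59.2 CPM in Col3a1+/G182R and 74.4, 60.2, 74.8 and 63.3 CPM in Col3a1+/+ (log2 fold change -0.15 ± 0.122 SE, edgeR adjusted p = 0.494). Antisense genes overlap *Plod2* (Gm38391) and *Plod3* (Znhit1), and whether the counting took strand into account is not given.

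*Plod2* held the largest share of the lysyl hydroxylase TPM in 6 of 7 libraries. Its share was 46.7, 45.2 and 44.2% in Col3a1+/G182R and 43.7, 48.5, 39.0 and 33.2% in Col3a1+/+. In Col3a1+/+ replicate 4 *Plod1* came first at 37.0%. The TPM ratio of *Plod2* to *Plod1* was 1.94, 1.83 and 1.53 in Col3a1+/G182R and 1.71, 2.21, 1.36 and 0.899 in Col3a1+/+ (log2 difference 0.26, exact permutation p = 0.543, adjusted p = 0.762), and the groups overlapped.

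For *P4hb*, *P3h1* and *Crtap* the genotypes stood further apart in TPM than in counts. *P4hb* (chr11:120560298-120573253, minus strand) had 763, 744 and 675 CPM in Col3a1+/G182R, against 820, 830, 797 and 616 CPM in Col3a1+/+, which overlap (log2 fold change -0.08 ± 0.142 SE, edgeR adjusted p = 0.781). In TPM the same gene had 449, 458 and 408 in Col3a1+/G182R, against 673, 513, 776 and 727 in Col3a1+/+, with each Col3a1+/G182R library below each Col3a1+/+ library. *P3h1* (chr4:119232915-119248975, plus strand) had 55.8, 54.2 and 47.5 CPM in Col3a1+/G182R and 65.0, 58.5, 58.3 and 51.3 CPM in Col3a1+/+ (log2 fold change -0.15 ± 0.123 SE, edgeR adjusted p = 0.491). Its TPM were 29.98, 26.6 and 29.97 in Col3a1+/G182R, against 36.8, 35.8, 38.5 and 38.0 in Col3a1+/+, without overlap.

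*Crtap* (chr9:114375134-114390675, minus strand), the non-enzymatic partner of P3H1, was the one gene of the 10 with lower values and no overlap on both scales. It had 139, 134 and 134 CPM in Col3a1+/G182R, against 161, 165, 160 and 154 CPM in Col3a1+/+, or 136 ± 2.67 CPM (SD, n = 3) in Col3a1+/G182R and 160 ± 4.38 CPM (SD, n = 4) in Col3a1+/+. The log2 fold change was -0.23 ± 0.105 (SE), a fold of 0.85, and did not pass the test (edgeR adjusted p = 0.246, DESeq2 adjusted p = 0.0807). In TPM it had 212, 195 and 223 in Col3a1+/G182R and 266, 269, 277 and 320 in Col3a1+/+. In all, 2 of 9 genes tested (*P4ha2* and *Crtap*) did not overlap in CPM and were lower in Col3a1+/G182R, against 10.8% of the genes tested. In TPM it was 3 of 9 (*P4hb*, *P3h1* and *Crtap*), against 9.32%. An antisense gene, 4930520O04Rik, overlaps *Crtap*.

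**Figure D3:**
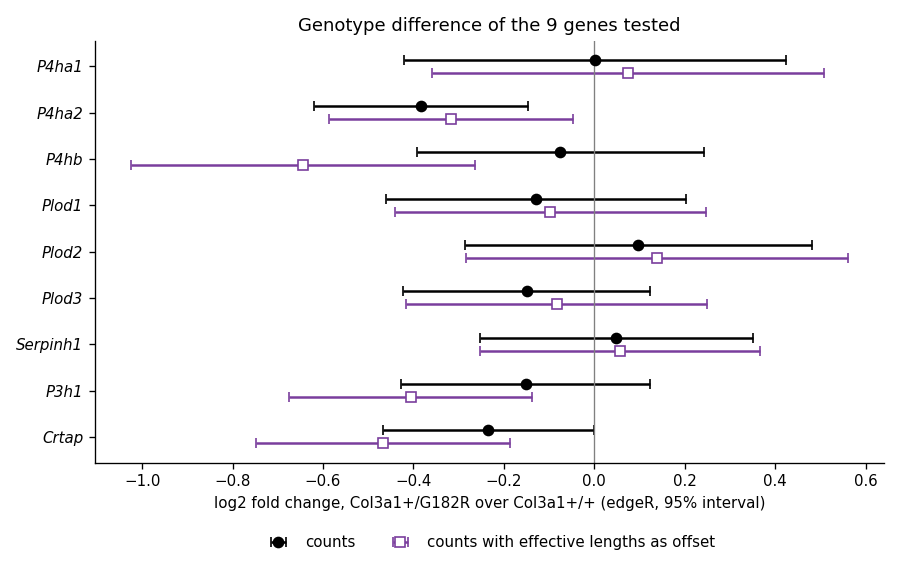
Genotype difference (Col3a1+/G182R over Col3a1+/+, log2 axis) from edgeR with its 95% interval, for counts alone (filled circles) and for counts with the effective transcript length of each library as an offset (open squares). For *P4hb* the value is -0.08 from counts and -0.64 with lengths, for *P3h1* -0.15 and -0.41 and for *Crtap* -0.23 and -0.47, while the other 6 genes move by less than 0.1.

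The length that RSEM assigns to a gene is the mean of its transcripts weighted by their estimated abundance, and TPM divides by it. *P4hb* had mean lengths of 2494, 2334 and 2635 bases in Col3a1+/G182R, against 1914, 2284, 1463 and 1318 bases in Col3a1+/+, without overlap. *P3h1* had 2720, 2901 and 2529 bases in Col3a1+/G182R and 2719, 2305, 2104 and 2028 bases in Col3a1+/+, where the groups overlap. *Crtap* had 1043, 1064 and 1039 bases in Col3a1+/G182R, against 1009, 939, 874 and 799 bases in Col3a1+/+, without overlap. Thus 2 of 9 genes tested were longer in each Col3a1+/G182R library, against 9.33% of the 12427 tested genes whose length varied, and 7.44% were shorter in each. *Serpinh1* stayed between 2133 and 2145 bases in the 7 libraries.

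**Figure D4:**
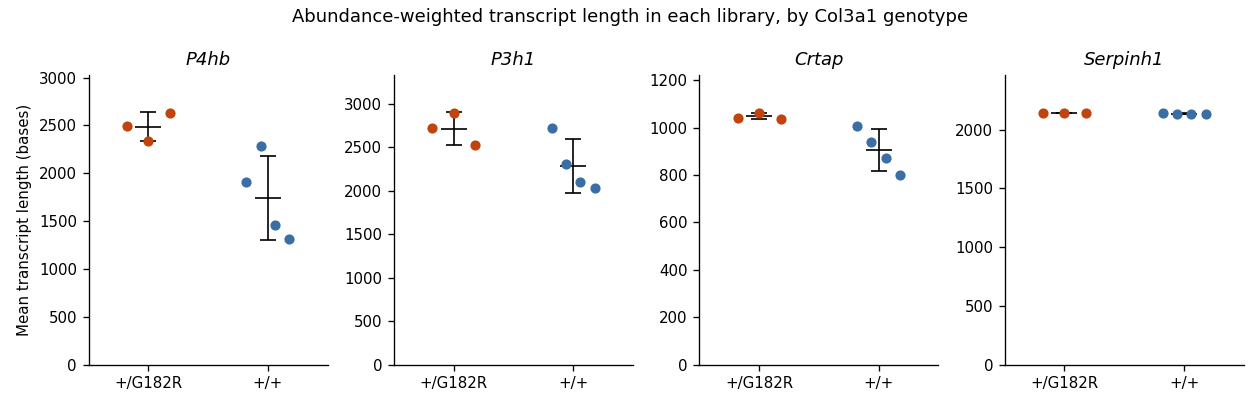
Abundance-weighted mean transcript length in bases (axes from 0) of *P4hb*, *P3h1*, *Crtap* and *Serpinh1* in the 3 Col3a1+/G182R libraries (left) and the 4 Col3a1+/+ libraries (right), with the mean and SD in black. The Col3a1+/+ libraries of *P4hb* run from 1318 to 2284 bases, below the 2334 to 2635 bases of Col3a1+/G182R, while *Serpinh1* is flat.

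Lengths of the 3 genes moved together across libraries and with depth. Across the 7 libraries the length of *Crtap* correlated with that of *P3h1* at r = 0.94 and with that of *P4hb* at r = 0.88, as a description over libraries that share their depth. The length of *P3h1* correlated with the library's total count at r = 0.97, that of *Crtap* at r = 0.91 and that of *P4hb* at r = 0.65. The shortest lengths belonged to Col3a1+/+ replicates 3 and 4, which also had the lowest totals, and the part of depth in the length difference was not tested. The gap between length and effective length, which grows with the fragment length of a library, was 121 to 131 bases in Col3a1+/G182R and 114 to 120 bases in Col3a1+/+, also without overlap, and its part was not tested either. Over the 12427 genes whose length varied, the median length of a library relative to each gene's mean was 1.001 to 1.003. Such a median stays near 1 where genes shift in both directions. Of these genes, 1159 were longer and 925 shorter in every Col3a1+/G182R library.

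With effective length as an offset, edgeR gave log2 fold changes of -0.64 ± 0.171 for *P4hb* (SE, adjusted p = 0.139), -0.41 ± 0.121 for *P3h1* (adjusted p = 0.152) and -0.47 ± 0.125 for *Crtap* (adjusted p = 0.14), so 0 of 9 genes were called. DESeq2 with the same offset called these 3 of 9 genes lower in Col3a1+/G182R, against 3.35% of the genes tested, with adjusted p-values of 0.0159 for *P4hb*, 0.032 for *P3h1* and 0.0121 for *Crtap*. Without any 1 of the Col3a1+/G182R libraries, or without Col3a1+/+ replicate 3, it called 0 of 9. It called *P4hb* and *Crtap* without Col3a1+/+ replicate 2 or 4, and all 3 without replicate 1. The TPM ratio of *Serpinh1* to *P4hb*, 1.69, 1.55 and 2.14 in Col3a1+/G182R against 1.22, 1.32, 1.01 and 0.886 in Col3a1+/+, did not overlap (log2 difference 0.70, exact permutation p = 0.0286, the smallest it can give, adjusted p = 0.229). Taken from counts without lengths, the log2 difference of that ratio was 0.12.

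The transcripts behind these lengths can be named for *Crtap*, which has 2 in the annotation of the files. The coding transcript has 7 exons and 1674 bases. The short transcript has 2 exons and 615 bases at the 3′ end of the gene, and is annotated as a retained intron. Of its bases, 517 lie in the last 2 exons of the coding transcript and 98 come from the end of the intron before them (chr9:114378124-114378221). Those 98 bases are printed in lower case, followed in capitals by the first 30 bases of the exon they run into, because they are the stretch of the short transcript that the coding one lacks.
Crtap: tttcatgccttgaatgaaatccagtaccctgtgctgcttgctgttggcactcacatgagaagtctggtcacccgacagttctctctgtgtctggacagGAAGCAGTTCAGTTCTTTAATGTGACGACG
With 2 transcripts of known length, the mean length fixes the share of each. The coding transcript made up 40.4, 42.4 and 40.0% of the *Crtap* TPM in Col3a1+/G182R, against 37.2, 30.6, 24.4 and 17.4% in Col3a1+/+. It thus came to 85.7, 82.5 and 89.1 TPM in Col3a1+/G182R and 98.8, 82.1, 67.7 and 55.6 TPM in Col3a1+/+, where the groups overlap. The short transcript came to 126, 112 and 133 TPM in Col3a1+/G182R, against 167, 187, 210 and 264 TPM in Col3a1+/+, so the gap in total *Crtap* TPM lay in the transcript with the retained intron. These shares are RSEM's estimates from reads that mostly fit both transcripts, and they carry no error of their own.

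**Figure D5:**
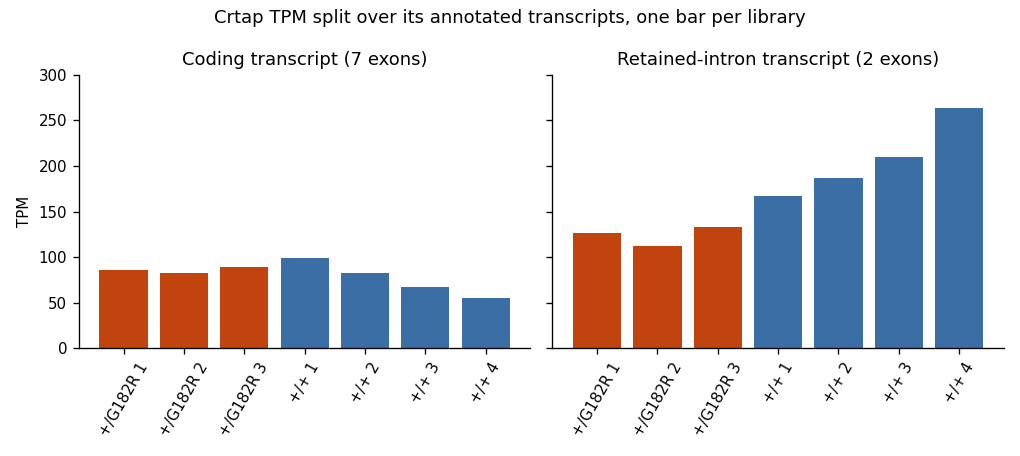
*Crtap* TPM split into the coding transcript (left panel) and the retained-intron transcript (right panel), with 1 bar per library, Col3a1+/G182R before Col3a1+/+. The coding transcript is at 82.5 to 89.1 TPM in Col3a1+/G182R and 55.6 to 98.8 TPM in Col3a1+/+, and the short one is at 112 to 133 TPM in Col3a1+/G182R and 167 to 264 TPM in Col3a1+/+.

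*P4hb* has 3 annotated transcripts, so the length gives bounds and not single values. The full-length transcript has 11 exons and 2861 bases, another coding one has 770 bases, and a non-coding one has 414 bases that all lie within the last exon of the full-length transcript. The full-length share lay within 82.5 to 85.0%, 74.8 to 78.5% and 89.2 to 90.8% in the 3 Col3a1+/G182R libraries. In the 4 Col3a1+/+ libraries it lay within 54.7 to 61.3%, 72.4 to 76.4%, 33.2 to 42.9% and 26.2 to 36.9%. Full-length *P4hb* was at 343 to 382 TPM over the Col3a1+/G182R bounds and at 190 to 412 TPM over the Col3a1+/+ bounds, which overlap. The short transcripts together were at 37.7 to 115 TPM in Col3a1+/G182R and 121 to 537 TPM in Col3a1+/+. Both have 0 bases outside the exons of the full-length transcript. The bounds cover only the unknown mix of the short transcripts, and the RSEM estimates under them carry no error of their own.

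Over the 7 libraries the 9 genes did not move as 1 block. Of the 36 pairs, 26 had a positive Pearson correlation of log2 CPM, with a median of 0.43 and a range of -0.59 (*Plod1* and *Plod2*) to 0.91 (*P4ha2* and *Crtap*), the pair whose CPM also separated the genotypes. *P4hb* and *Plod2* had r = 0.84, and *P4hb* and *P3h1* had r = 0.82. Among 9341 genes, those most like *Serpinh1* were *Zfp553* (r = 0.957), *Hgsnat* (0.956) and *Pea15a* (0.953). Those most like *P4ha1* were *Tnfaip1* (0.979), *Bicd2* (0.963) and *Cct3* (0.962). *Plod2* was followed most closely by *Scrn3* (0.996), *Spats2l* (0.992) and *Rpn1* (0.992). All are descriptions over 7 libraries of 2 genotypes.

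Other genes of the pathway gave no call by edgeR. Among 27 further ER enzymes and chaperones, 16 were higher and 11 lower, with a median log2 fold change of 0.09. EdgeR called 0 of the 27, and 1 had an unadjusted p under 0.05, against 20.4% of the genes tested. That gene was *Fkbp10*, a prolyl isomerase that works with lysyl hydroxylase 2 and HSP47. It had 146, 141 and 122 CPM in Col3a1+/G182R, against 177, 189, 181.5 and 179 CPM in Col3a1+/+, without overlap (log2 fold change -0.42 ± 0.116 SE, edgeR adjusted p = 0.158, DESeq2 adjusted p = 0.0108). *P3h4*, which acts with the lysyl hydroxylase 1 complex, had a log2 fold change of -0.26 (edgeR adjusted p = 0.288), *Tmem38b*, an ER potassium channel, 0.38 (0.291) and the lectin chaperone *Canx* 0.41 (0.308). Of 24 genes for procollagen export, 0 were called and 2 had an unadjusted p under 0.05 (both lower), against 20.4% of the genes tested in either direction. These were *Preb*, which loads the coat GTPase Sar1, at 67.9 ± 2.61 CPM in Col3a1+/G182R (SD, n = 3) and 110 ± 33.3 CPM in Col3a1+/+ (SD, n = 4), and the coat subunit *Sec24c* at 96.2 ± 3.81 CPM in Col3a1+/G182R and 118 ± 7.25 CPM in Col3a1+/+. Their edgeR adjusted p-values were 0.17 and 0.192. *Sec23a* (log2 fold change 0.52) and *Trappc2* (0.38) were not past the unadjusted threshold.

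Of 16 collagen chain genes tested, 6 were higher and 10 lower, and the median log2 fold change was -0.07. EdgeR and DESeq2 each called 0, and DESeq2 with effective lengths called 2, against 900 of the 15688 genes tested. *Col14a1* had the smallest p, with 243, 237 and 247 CPM in Col3a1+/G182R and 229, 168, 176 and 166 CPM in Col3a1+/+ (log2 fold change 0.39, edgeR adjusted p = 0.186). *Col6a1* (-0.26), *Col8a1* (0.58) and *Col6a3* (-0.26, all log2 fold changes) came next by p, none past the unadjusted threshold. The TPM ratio of *Serpinh1* to *Col3a1* was 0.36, 0.334 and 0.289 in Col3a1+/G182R and 0.252, 0.303, 0.399 and 0.44 in Col3a1+/+ (log2 difference -0.06, exact permutation p = 0.8, adjusted p = 0.914). For *P4hb* to *Col3a1* it was 0.213, 0.215 and 0.135 in Col3a1+/G182R and 0.207, 0.23, 0.397 and 0.496 in Col3a1+/+ (log2 difference -0.76, exact permutation p = 0.2, adjusted p = 0.533).

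Genes of the unfolded protein response, of which 5 are also among the ER chaperones above, were split, with 12 of 25 higher and 13 lower (median log2 fold change -0.01). EdgeR called 0 of the 25, and 3 had an unadjusted p under 0.05, against 20.4% of the genes tested. *Ddit3*, which encodes CHOP, had 22.9, 27.4 and 26.9 CPM in Col3a1+/G182R, against 34.6, 36.1, 36.3 and 38.7 CPM in Col3a1+/+ (log2 fold change -0.50, edgeR adjusted p = 0.146, DESeq2 adjusted p = 0.00862). *Dnajb9*, a BiP co-chaperone, had 25.0, 27.5 and 31.5 CPM in Col3a1+/G182R and 22.6, 20.8, 15.3 and 12.2 CPM in Col3a1+/+ (log2 fold change 0.65, edgeR adjusted p = 0.17). The ubiquitin ligase *Syvn1* had a log2 fold change of -0.45 (edgeR adjusted p = 0.215) and the stress sensor *Atf6* one of 0.31 (edgeR adjusted p = 0.303).

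Heat shock factor targets were higher in 13 of 14 cases, beside 7946 of 15688 over the genes tested, with a median log2 fold change of 0.39. EdgeR called 0 of the 14, and 5 had an unadjusted p under 0.05, against 20.4% of the genes tested. DESeq2 called 2 of the 14, both higher, against 2% of the genes tested that it called higher (314 of 15688). *Dnajb1*, an HSP70 co-chaperone, had 38.8, 42.2 and 63.7 CPM in Col3a1+/G182R, against 31.96, 29.96, 28.04 and 29.91 CPM in Col3a1+/+ (edgeR adjusted p = 0.153, DESeq2 adjusted p = 0.0225). *Hspa1b*, an inducible HSP70, had 33.9, 35.5 and 176 CPM in Col3a1+/G182R and 25.7, 14.9, 24.6 and 16.2 CPM in Col3a1+/+, so most of its difference came from Col3a1+/G182R replicate 3. Its near-identical copy *Hspa1a* followed with 48.4, 46.0 and 202.5 CPM in Col3a1+/G182R and 33.5, 29.1, 44.8 and 37.0 CPM in Col3a1+/+, and reads of the pair may be split between them. *Dnaja1* had 108, 170 and 289 CPM in Col3a1+/G182R, again highest in replicate 3, and 114, 100, 107 and 87.6 CPM in Col3a1+/+. *Serpinh1*, itself known as a heat-inducible gene, had 1161 CPM in that library, inside the Col3a1+/+ range.

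Among 19 targets of hypoxia-inducible factor outside the hydroxylases, 11 were higher and 8 lower (median log2 fold change 0.10, 0 called by edgeR, 3 with an unadjusted p under 0.05, 2 called higher by DESeq2). Over the genes tested these shares were 20.4% with an unadjusted p under 0.05 and 2% called higher by DESeq2. *Bnip3*, a mitophagy receptor, had 47.2, 53.4 and 55.5 CPM in Col3a1+/G182R, against 33.6, 41.3, 28.5 and 28.1 CPM in Col3a1+/+ (log2 fold change 0.66, edgeR adjusted p = 0.146, DESeq2 adjusted p = 0.0104). *Adm*, the vasodilator adrenomedullin, had 14.1, 11.5 and 11.5 CPM in Col3a1+/G182R, against 8.66, 6.27, 6.53 and 4.67 CPM in Col3a1+/+ (log2 fold change 0.91, edgeR adjusted p = 0.146, DESeq2 adjusted p = 0.00972). The glycolytic genes *Ldha* (log2 fold change 0.29) and *Pfkp* (-0.28) came next by p. The hydroxylases known as hypoxia targets in other cells had log2 fold changes of 0.00 (*P4ha1*), -0.38 (*P4ha2*), -0.13 (*Plod1*) and 0.10 (*Plod2*) in the same libraries.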

How the data were processed

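Per the labels and the study's methods, poly-A RNA of thoracic aortas was sequenced from stranded TruSeq libraries. According to the submitters' processing notes, the authors used STAR 2.7.6a and RSEM 1.3.1 with GRCm38, and deposited expected counts, TPM and mean transcript lengths per gene. The paper's methods name featureCounts and another STAR release, while the files have RSEM's columns, on which the length and transcript results rest. The expected counts, deposited by the authors unnormalized, were rounded. The TPM values were used as deposited for levels and ratios. The annotation release was not given in the sources used here, and all transcripts of the 10 genes matched GENCODE M21 (55141 of 55487 gene identifiers had a symbol).

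Genes were filtered by filterByExpr (minimum count 10) and TMM-scaled, and genotypes compared with edgeR 4.0.16 (R 4.3.3), two-sided, adjusted by Benjamini-Hochberg over 15688 genes at 0.05. DESeq2 1.42.0, limma 3.58.1 (voom, quality weights, log2(TPM + 1)), RLE factors, other filters, a length offset and leaving out each library were alternatives. DESeq2 with length offsets or without single libraries was chosen after seeing the data. Methods were tested on simulated data. Ratios used exact permutation. The 10 genes were chosen by name, and they and the lists with earlier results of these data known. Besides the 10 genes, those named are up to 4 of each list with the smallest p, *Col3a1*, and the closest 3 to *Serpinh1*, *P4ha1* and *Plod2* by correlation. The labels do not say that equal replicate numbers share a litter, and p-values measure the spread between these mice only.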

Additional observations from a re-analysis of the deposited data

Results flagged for a closer look

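In the 4 Col3a1+/+ libraries, 2 of 38 sets of values (CPM, TPM and length of the 10 genes, and 8 ratios) had 1 library standing apart by Dixon's criterion, which chance alone gives in about 1 in 20. *P4hb* was at 616 CPM in Col3a1+/+ replicate 4, below the other 3 at 797 to 830 CPM, and without that library its log2 fold change was -0.18 in place of -0.08. The mean transcript length of *Serpinh1* was 2141 bases in Col3a1+/+ replicate 1, against 2133 bases in the other 3, a gap of under 1% of the length.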

How the results depend on the processing

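Of the 9 genes tested, edgeR and limma called 0 under each alternative run with them, including each library left out, while DESeq2 called 1 (*P4ha2*) and DESeq2 with length offsets, an alternative added after seeing the data, 3. With single libraries left out these counts were 0 to 1 and 0 to 3. Calls over all genes depended far more on the setting, against 6 in the main test. There were 723 with DESeq2, 11 with limma-voom, 546 with quality weights, 353 with no filter, 0 with at least 10 counts in every library (3046 had an unadjusted p under 0.05), 14 with the length offset, 900 with DESeq2 and lengths, and 0 to 183 without single libraries (183 without Col3a1+/+ replicate 1, 32 without replicate 4 and 0 without any other). The number of mice limits the tests. In the main test on counts the 95% interval excluded 0 for *P4ha2* alone among the 9 genes. With the length offset the edgeR interval also excluded 0 for *P4hb* (-1.025 to -0.264), *P3h1* (-0.675 to -0.137) and *Crtap* (-0.747 to -0.187), while 0 of the 9 were called.

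*P4ha2*, *P4hb*, *Plod1*, *Plod3*, *P3h1* and *Crtap* stayed lower in each of 17 alternatives. The sign of *P4ha1*, near 0, turned to -0.0032 with DESeq2 and RLE factors, -0.0018 with limma-voom, -0.0545 with quality weights and -0.0094 with at least 10 counts in every library, and ran from -0.17 to 0.15 without single libraries. *Serpinh1* was at -0.0214 with quality weights and from -0.0264 (without Col3a1+/+ replicate 4) to 0.106 without single libraries, and *Plod2* from -0.0464 (without the same library) to 0.186. Libraries that share a replicate number did not deviate together (r = -0.0469, 0.0153 and 0.0777), and the labels state no pairing. With so few libraries these correlations cannot exclude one. With a replicate block 46 genes were called, 0 of them among the 9, and the values were -0.062 for *P4ha1*, -0.0368 for *Plod2* and -0.0139 for *Serpinh1*.

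Lists gained calls as follows. Over the 15688 genes tested, DESeq2 called 723, DESeq2 with lengths 900 and quality weights 546. With no filter, which also kept genes of low count, 353 were called. DESeq2 called 1 of the other ER genes, 1 of the unfolded protein response, 2 hypoxia and 2 heat shock targets. With lengths it called 1 other ER gene, 2 export genes, 2 collagens, 2 of the unfolded protein response, 3 hypoxia and 2 heat shock targets. Quality weights gave 1 of the unfolded protein response and 2 hypoxia targets, and no filter gave 2 hypoxia and 4 heat shock targets. Without single libraries hypoxia targets had 0 to 1 (1 without Col3a1+/+ replicate 1, where 183 genes were called in all). The log2 difference of the Plod3/Plod1 ratio was 0.012, -0.024 from counts and -0.139 to 0.139 without single libraries, and that of Serpinh1/Col3a1 ran from -0.205 to 0.062.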
